A study of Mus musculus with 2 samples.

Results

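The expression of 9 genes that salvage or oxidise purines was described in the kidney of mice fed adenine with or without the phenolic acid HMPA. The genes were Aprt, Xdh, Adk, Ada, Pnp, Hprt, Nt5e, Ampd3 and Gda, chosen by gene name with earlier results of these data known. Most act on adenine, adenosine, hypoxanthine or guanine, while Nt5e and Ampd3 act on AMP and Pnp on inosine and guanosine. The 9 genes were represented by 26 spots of 17 probes, of 41174 probes for 26484 genes on the array. All 9 genes were among the 16698 genes with a probe above background, and 14 of their 17 probes passed that filter.

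HMPA is 3-(4-hydroxy-3-methoxyphenyl)propionic acid. The HMPA kidneys came from male CD-1 mice that ate an AIN-93G diet with 0.2% adenine and 2% HMPA by weight for 1 week from 7 weeks of age. The kidneys given adenine alone came from male CD-1 mice on the same diet without HMPA. Both conditions therefore carried the adenine load, and no kidney from a diet without adenine was measured. The titles give an age of 12 weeks and 5 mice, and do not say whether RNA was pooled or how many mice stood behind each condition. The HMPA sample was hybridised against the sample on adenine alone on 2 arrays, with Cy5 for HMPA on array 1 and Cy3 for HMPA on array 2. The labels do not say whether both arrays hold the same RNA. The arrays were treated as 1 RNA sample per condition with 2 measurements, and no p-value was computed. The value after ± below is the distance of each array from the mean of both, and whether it holds any difference between animals is not known.

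Adenine has 2 main fates in a mammal. Adenine phosphoribosyltransferase returns it to AMP, while xanthine dehydrogenase oxidises it to dihydroxyadenine, which dissolves poorly and forms crystals in the tubules when adenine is fed. Adenosine is made from AMP outside the cell by the ecto-nucleotidase CD73, and inside the cell it is either phosphorylated back to AMP by adenosine kinase or deaminated to inosine by adenosine deaminase. Inosine is split to hypoxanthine, which is salvaged to IMP or oxidised to xanthine and urate.

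Calls followed a threshold of size, with no test behind it. A higher or lower gene had a ratio of HMPA over adenine alone of 2-fold or more as the mean of both arrays, and of 1.5-fold or more on array 1 and array 2 separately, in 1 direction. Of the 9 enzymes, 1 (Adk) met the rule as higher, where 6.64% of all 16698 genes did. A further 2 (Xdh and Ada) met it as lower, where 7.72% of all genes did. The median log2 ratio of the 9 was −0.20 (−0.17 on array 1 and −0.11 on array 2), against −0.04 over all genes. The 9 values ran from −1.20 to 1.49, with 3 above 0 and 6 below, and 8 of the 9 had the same sign on both arrays. Of all 16698 genes, 7701 were above 0 and 8997 below, and 13156 had the same sign on both arrays. In either direction, 14.4% of all genes met the rule. With 9 genes and no test, whether the members' counts differ from these shares was not settled. Over all genes the spread after ± had a median of 0.11. Statements below that values did not overlap describe the channels of that gene only. The share of all genes without overlap is not given here.

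**Figure D1:**
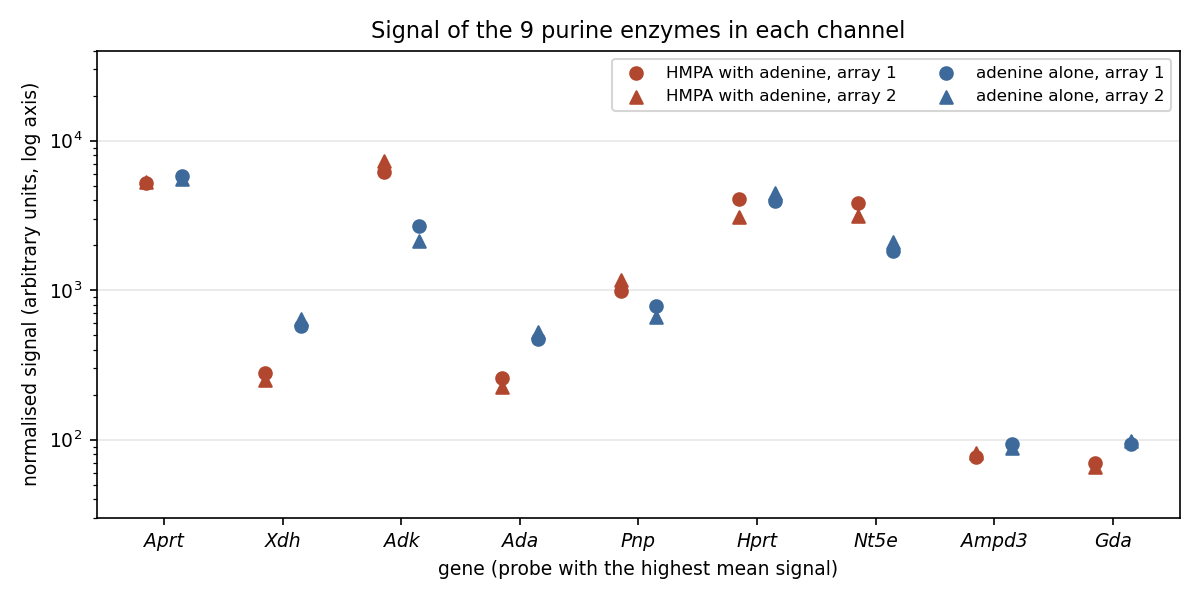
Normalised signal (arbitrary units, log axis) of the 9 enzymes in the HMPA channel (left, red) and the channel of adenine alone (right, blue) on array 1 (circles) and array 2 (triangles), each gene by its brightest probe. The HMPA points lie clear above those of adenine alone for Adk, Nt5e and Pnp, clear below for Xdh, Ada and Gda, and overlap them for Hprt; signals of different genes come from different probes and cannot be ranked.

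The enzymes that act on adenine itself did not move together. Aprt, which salvages adenine, had normalised signals of 5193 and 5328 in the HMPA channels of arrays 1 and 2, against 5841 and 5587 in the channels of adenine alone. The HMPA values lay below the others without overlap, but by a small margin. The ratio was 1.09-fold lower (log2 −0.12 ± 0.05) and did not meet the rule, and under the alternative ways of processing it stayed between −0.22 and −0.06. This value came from a probe at chr8:125098641-125098700 (build mm9, minus strand). The other Aprt probe, at chr8:125099640-125099701, was not above background in either condition on either array and gave no measurement.

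Xdh, which oxidises adenine, hypoxanthine and xanthine, had signals of 280.2 and 250.5 with HMPA, against 580.5 and 641 with adenine alone. Both HMPA values were under the lowest value on adenine alone. The log2 ratio was −1.20 ± 0.15, a 2.30-fold lower level, and 913 of the 16698 genes had a lower ratio. Its 3 probes had the same sign on both arrays but differed in size. The brightest, at chr17:74233511-74233570 on the minus strand, gave the value above. The next, at chr17:74238150-74238209, gave −0.57 ± 0.01, and the third, at chr17:74242100-74242974, gave −0.38 ± 0.13. With the mean over the 3 probes, Xdh was −0.72 and no longer met the rule. The third probe covers 875 bases of genome with a length of 60, so it crosses an intron. It was dim, with signals of 80.5 and 83.0 with HMPA, against 114.7 and 98.7 with adenine alone. With Feature Extraction's ratios it was −0.90, past the second probe at −0.61, while the brightest was −1.34. Its sequence is shown because its place among the Xdh probes depended on the processing.
Xdh probe, chr17:74242100-74242974, minus strand: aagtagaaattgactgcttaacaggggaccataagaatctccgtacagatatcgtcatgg

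The gap between both adenine enzymes was read within each array, where a shift common to both genes cancels. The log2 ratio of Xdh lay below that of Aprt by 0.88 on array 1 and 1.29 on array 2. The mean difference, Xdh minus Aprt, was −1.08 ± 0.20, or 2.12-fold. Over 9 alternatives it ran from −1.32 to −0.60, the smaller gap with the mean over Xdh probes, so its sign held under each of them.

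The enzymes of adenosine had ratios of opposite sign. Adk, adenosine kinase, had signals of 6153 and 7344 with HMPA, against 2695 and 2126 with adenine alone. Both HMPA values lay far above those on adenine alone. The log2 ratio was 1.49 ± 0.30, or 2.81-fold higher, and 528 of the 16698 genes had a higher ratio. Adk had a single probe, at chr14:22267635-22267694 on the plus strand, so no second probe could be set beside it. It met the rule under all 9 alternatives, with values from 1.19 (array 1 alone) to 1.79 (array 2 alone). With 1 probe above background in all channels, the filter alternatives and the mean over probes could not change the Adk value.

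Ada, adenosine deaminase, had signals of 260.3 and 224 with HMPA, against 471 and 523 with adenine alone, again without overlap. The log2 ratio was −1.04 ± 0.18, or 2.05-fold lower, just inside the 2-fold limit. On array 1 alone it was −0.86 and did not meet the rule. Its 1 probe lies at chr2:163552581-163552640 on the minus strand. Adk minus Ada, the difference of their log2 ratios, was 2.05 on array 1 and 3.01 on array 2, with a mean of 2.53 ± 0.48, or 5.77-fold.

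Nt5e encodes CD73, which sits on the cell surface and makes adenosine from AMP. Its signals were 3829 and 3142 with HMPA, against 1836 and 2106 with adenine alone, with no overlap. The log2 ratio was 0.82 ± 0.24 (1.76-fold higher), short of the rule, and it passed the rule on array 1 alone (1.06). The second probe, which crosses an intron, was dim, with signals of 105 and 110.2 with HMPA, against 76.8 and 84.1 with adenine alone, and gave 0.42 ± 0.03. With Feature Extraction's own ratios, which subtract background fully, the order of the probes turned: the dimmer probe was 1.20 and the brighter 0.79. Nt5e minus Adk was −0.67 ± 0.54, with −0.13 on array 1 and −1.21 on array 2, so the gap between these genes was not settled by the arrays. The junction probe is shown because its place among the probes depended on the processing.
Nt5e probe, chr9:88264041-88265007, plus strand: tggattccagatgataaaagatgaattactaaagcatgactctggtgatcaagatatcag

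**Figure D2:**
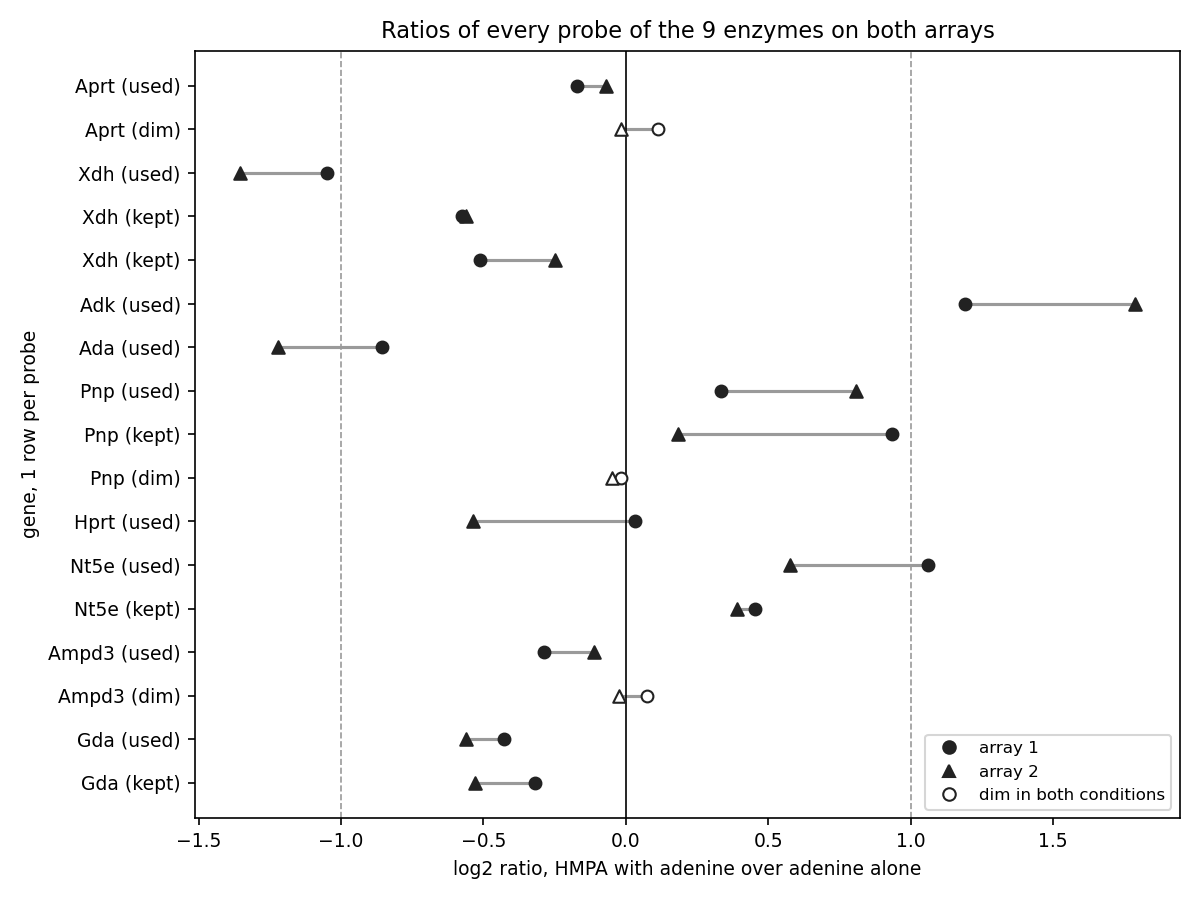
Log2 ratio of HMPA over adenine alone (x axis) for each of the 17 probes (rows) on array 1 (circles) and array 2 (triangles); open symbols are probes not above background in either condition, and dashed lines mark 2-fold. Adk is the only enzyme beyond 2-fold on both arrays on the right and the brightest Xdh probe the only one on the left, and the 3 dim probes lie near 0.

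Adk and Ada act on the same substrate and gave opposite ratios, so the sequences around their starts are shown (RefSeq, build GRCm38.p6, 250 bases before to 50 after the start). Capitals mark the GC box GGGCGG, which binds factors of the Sp family, and the CCAAT box CCAAT, each on either strand. Of 32851 promoters of this length, 35.7% hold GGGCGG, 37.4% CCAAT and 13.6% TATAAA. The upstream Adk promoter held 4 GC boxes and 2 CCAAT boxes, 1 of which shares bases with a GC box. The downstream one held 4 and 1, and the Ada promoter 2 and 1. None of these held TATAAA. These matches are letters in a window and do not show binding.
Adk, chr14:21052324-21052623, plus strand: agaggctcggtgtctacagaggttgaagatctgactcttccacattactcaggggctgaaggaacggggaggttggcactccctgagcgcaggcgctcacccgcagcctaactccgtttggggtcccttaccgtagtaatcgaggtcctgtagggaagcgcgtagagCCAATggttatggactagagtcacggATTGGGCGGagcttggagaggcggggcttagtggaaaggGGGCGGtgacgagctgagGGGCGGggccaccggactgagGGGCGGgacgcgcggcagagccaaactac
Adk, chr14:21075902-21076201, plus strand: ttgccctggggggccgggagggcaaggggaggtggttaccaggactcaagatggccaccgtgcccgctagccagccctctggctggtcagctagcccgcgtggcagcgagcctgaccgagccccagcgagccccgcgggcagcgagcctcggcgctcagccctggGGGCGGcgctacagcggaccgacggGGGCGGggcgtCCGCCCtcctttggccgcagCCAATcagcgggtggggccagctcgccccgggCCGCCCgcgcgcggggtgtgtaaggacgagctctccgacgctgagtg
Ada, chr2:163750190-163750489, minus strand: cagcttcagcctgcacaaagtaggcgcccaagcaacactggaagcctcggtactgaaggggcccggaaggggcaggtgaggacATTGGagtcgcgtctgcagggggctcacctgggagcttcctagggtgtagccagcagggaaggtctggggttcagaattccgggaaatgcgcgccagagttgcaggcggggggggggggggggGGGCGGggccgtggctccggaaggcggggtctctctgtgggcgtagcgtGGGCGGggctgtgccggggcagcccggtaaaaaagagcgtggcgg

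No promoter was matched for Xdh. Promoters were matched for the other 8 of the 9 genes, 11 in all. A GC box was found for 6 of them: Adk (higher by the rule), Ada (lower) and Aprt, Hprt, Nt5e and Pnp (neither). The GC content of the members' promoters ran from 47.3% for Pnp to 75.0% for the downstream start of Adk, against a median of 52.7% over all promoters. The GC box was thus present in genes called higher, lower and neither, where Ada alone stands for the lower genes.

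Pnp, Hprt and Gda, which act on inosine, hypoxanthine and guanine beside Xdh, did not meet the rule. Pnp, purine nucleoside phosphorylase, splits inosine and guanosine to their bases. Its signals were 985 and 1167 with HMPA, against 781 and 667 with adenine alone, without overlap. The log2 ratio was 0.57 ± 0.24 (1.49-fold). A second, overlapping probe gave nearly the same mean (0.56 ± 0.38), but the arrays ran in opposite order. For the first probe array 2 was the higher (0.34 on array 1 and 0.81 on array 2), and for the second array 1 was (0.94 and 0.18). Both sequences are shown because they share 40 of 60 bases, in capitals, and still differed by this much within an array. With Feature Extraction's ratios the probes lay closer within each array, at 0.69 and 0.65 on array 1 and 0.65 and 0.60 on array 2.
Pnp probe, chr14:51569999-51570239, plus strand: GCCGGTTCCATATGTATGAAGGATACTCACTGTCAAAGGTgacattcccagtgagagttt
Pnp probe, chr14:51569979-51570219, plus strand: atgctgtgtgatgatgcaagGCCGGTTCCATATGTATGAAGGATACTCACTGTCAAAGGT

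The third Pnp probe, at chr14:51572939-51572998, was not above background in either condition. Mouse carries a neighbouring copy, Pnp2, which no probe on the array names, so the Pnp values may hold signal from both. Under median centring in place of loess, Pnp was 0.29, with −0.25 on array 1 and 0.82 on array 2.

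Hprt salvages hypoxanthine and guanine and is often used as a reference gene. Its probe at chrX:50374757-50374816 was printed 10 times. Signals averaged 4045 and 3083 with HMPA, against 3957 and 4468 with adenine alone, and the groups overlapped. The log2 ratio was −0.25 ± 0.28. On array 1 the 10 spots ran from −0.19 to 0.36 with a median of 0.02, and on array 2 from −0.79 to −0.40 with a median of −0.51. The spots of both arrays did not overlap, and the gap between arrays was several times the SD between spots (0.14 on array 1 and 0.12 on array 2). Repeat spots on 1 array were therefore closer together than the arrays were. Xdh minus Hprt, the enzymes that oxidise and salvage hypoxanthine, was −0.95 ± 0.13, and it ran from −1.15 to −0.47 over the alternatives.

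Gda, guanine deaminase, turns guanine into xanthine. It was close to background, with signals of 69.8 and 66.1 with HMPA, against 94.0 and 97.3 with adenine alone, where 50 units are the offset added in background correction. The values did not overlap, and the log2 ratio was −0.49 ± 0.07. The call depended on the background step: Gda was −1.06 with an offset of 10 and −1.76 with Feature Extraction's ratios, and met the rule as lower under both. A second probe, at chr19:21468121-21468180, was above background with adenine alone on both arrays and on neither array with HMPA. Its ratio is therefore a bound, at least 1.34-fold lower with HMPA.

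Ampd3 encodes the AMP deaminase of red blood cells, which turns AMP into IMP. Its signals were 76.4 and 81.5 with HMPA, against 93.2 and 88.2 with adenine alone. The values did not overlap but lay close together, and the log2 ratio of −0.20 ± 0.09 did not meet the rule under any of the 9 alternatives. The largest of these was −0.58, with Feature Extraction's ratios. Its second probe, at chr7:117939286-117944179, was not above background in either condition.

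**Figure D3:**
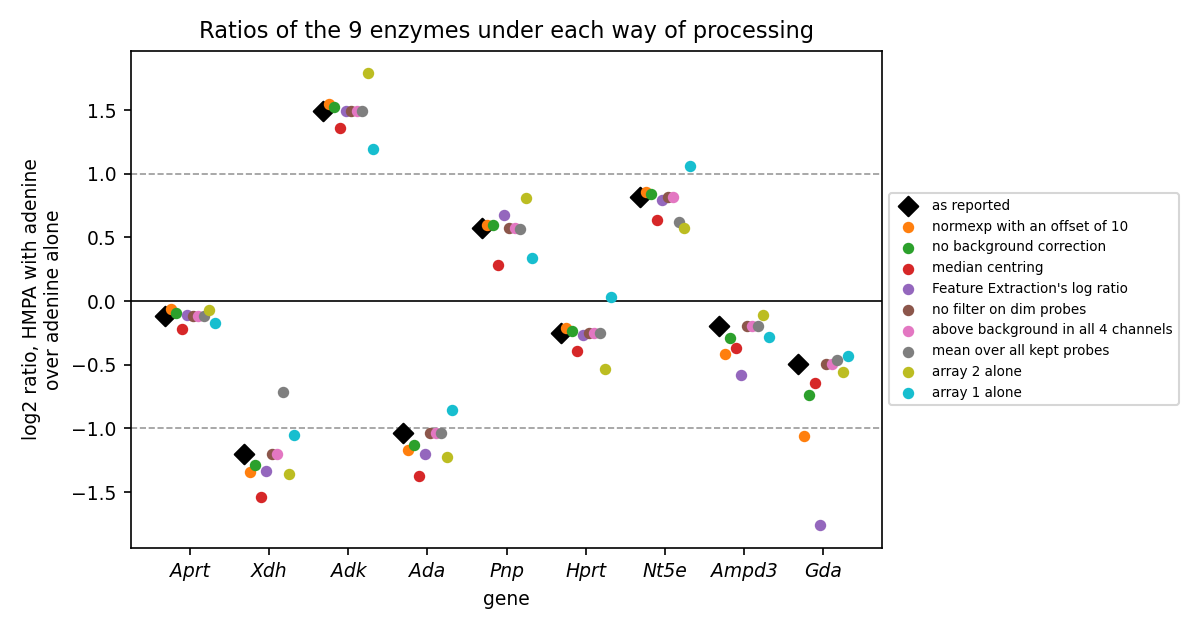
Log2 ratio of HMPA over adenine alone (y axis) for the 9 enzymes as reported (black diamonds) and under 9 other ways of processing (coloured points), with dashed lines at 2-fold. Adk stays above 1 throughout, Xdh leaves the lower zone with the mean over all probes, and Gda enters it with an offset of 10 (−1.06) and with Feature Extraction's ratios (−1.76).

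Other genes of purine metabolism were set beside the 9 enzymes in 7 lists of 78 genes, of which 65 were measured. By the rule 5 (7.69%) were higher and 3 (4.62%) lower, where 6.64% of all genes were higher and 7.72% lower. The median was 0.21, against −0.04 over all genes. With median centring it turned to −0.06, against −0.22 over all genes. No gene of the 13 in de novo purine synthesis met the rule, although 1 was lower with an offset of 10 and 1 with median centring. Their median was 0.23 (−0.02 to 0.42 over the alternatives), with Paics at 0.23 ± 0.12 and Prps1, which makes the ribose donor that Aprt and Hprt also use, at 0.25 ± 0.18. Of the 13, 9 were above 0 and 4 below. The lowest was Atic (−0.88 ± 0.05), named after its value was seen.

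Slc43a3, a carrier of nucleobases that takes up adenine, guanine and hypoxanthine, was the one carrier of 6 measured to meet the rule, where 2 did with Feature Extraction's ratios. It had signals of 1198 and 1038 with HMPA, against 3199 and 3103 with adenine alone. The groups were far apart, and the log2 ratio was −1.50 ± 0.08, or 2.83-fold lower. It met the rule as lower under all 9 alternatives, with values from −1.71 to −1.42. It had 1 probe, so the filter alternatives and the mean over probes could not change its value. The nucleoside carrier Slc29a1 was −0.38 ± 0.08 and was named after its value was seen.

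Among 8 other genes of salvage and release, Ahcy alone met the rule. Ahcy splits adenosylhomocysteine and so releases adenosine. It had signals of 4405 and 5057 with HMPA, against 1654 and 1310 with adenine alone, and a log2 ratio of 1.68 ± 0.27. It was higher under all 9 alternatives, and its second probe gave 0.91. Mtap, which releases adenine from methylthioadenosine, was −0.01 ± 0.11 and was chosen after its value was seen.

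The adenylate kinases, which exchange phosphate between AMP and other nucleotides, parted by member. Ak4, a kinase of the mitochondrial matrix, had signals of 885 and 1200 with HMPA, against 165 and 140 with adenine alone (2.76 ± 0.34, or 6.79-fold higher). Ak1, the cytosolic form, had 381 and 347 with HMPA, against 770 and 781 with adenine alone (−1.09 ± 0.08). Both met the rule under all 9 alternatives. Each had 1 probe, so the filter alternatives and the mean over probes could not change their values. The other 13 measured genes of this list did not meet it as reported. With the mean over probes and on either array alone 2 genes of the list were higher, and with median centring and on array 1 alone 2 were lower.

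Of 11 genes in the list of ectonucleotidases, which holds enzymes that strip phosphate from nucleotides, 2 met the rule as higher and 1 as lower. Entpd5, an enzyme of the endoplasmic reticulum, was 2.61 ± 0.38 (6.09-fold higher). Entpd4, of the Golgi, was 1.34 ± 0.11, and its other probe gave 0.39. Entpd1, or CD39, which acts before CD73 at the cell surface, had signals of 143 and 154 with HMPA, against 319 and 309 with adenine alone (−1.08 ± 0.07), and its other probe gave −0.46. With the mean over all probes Entpd4 (0.86) and Entpd1 (−0.77) no longer met the rule. The number higher in this list was 4 on array 2 alone, with an offset of 10, without background correction and with Feature Extraction's ratios. The number lower was 2 with Feature Extraction's ratios and 2 by median centring. CD39 and CD73 thus had ratios of opposite sign.

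Of the 3 adenosine receptors measured, none met the rule, and 1 was lower with Feature Extraction's ratios. Adora1 was −0.56 ± 0.05 and Adora2a 0.25 ± 0.35, but other probes of these genes gave 0.06 and −0.70, so the sign of both depended on the probe. In the list of the molybdenum cofactor, which Xdh needs, and of urate breakdown, 1 of 9 measured genes met the rule as higher, against 3 on either array alone and 2 with Feature Extraction's ratios. None was lower, against 1 with an offset of 10 and 1 with Feature Extraction's ratios. The higher gene was Suox, sulfite oxidase, another enzyme with this cofactor, at 1.42 ± 0.39 (2.67-fold higher). The median of this list was 0.70, above 0 under each alternative (0.06 to 0.74), while Xdh was −1.20.

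**Figure D4:**
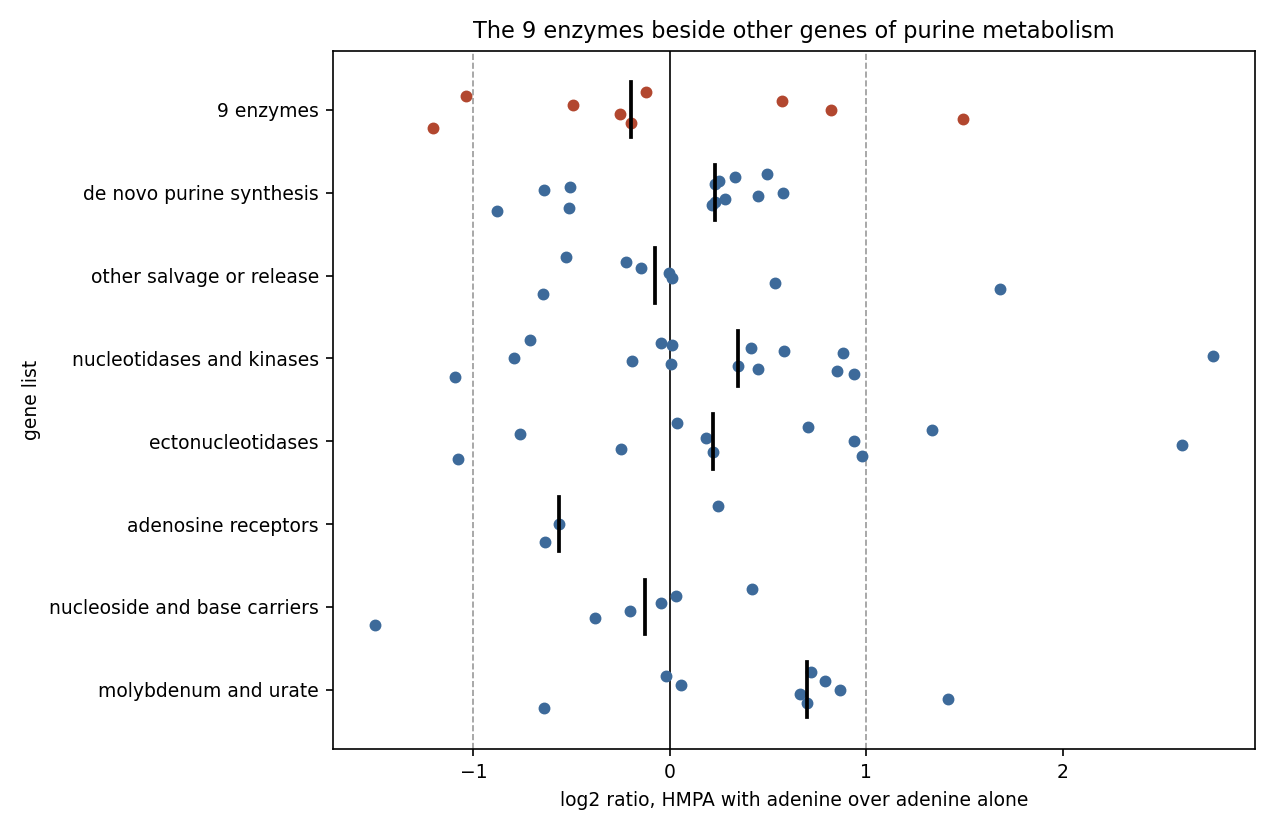
Log2 ratio of HMPA over adenine alone (x axis) for the 9 enzymes (red, top row) and the measured genes of 7 lists of purine metabolism (blue, 1 point per gene, vertical spread only to separate points), with medians as black bars and 2-fold as dashed lines. The points past 2-fold outside the 9 enzymes are Ak4, Entpd5, Ahcy, Suox and Entpd4 on the right and Slc43a3, Ak1 and Entpd1 on the left.

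The values above are from whole kidney, in which fewer cells of a type and less RNA per cell cannot be told apart. Markers of several cell types moved at the same time. All 14 proximal tubule markers had ratios above 0 and 13 met the rule as higher (median 2.63), with Miox at 3.02 ± 0.28, Slc22a6 at 2.64 ± 0.53 and Slc27a2 at 2.63 ± 0.25. Their summed signal was 302100 to 313000 with HMPA, against 45290 to 64010 with adenine alone. This sum and those below add different probes, so the brightest genes weigh most in them. Adk, Nt5e and Pnp thus had smaller ratios than the median of these markers. Xdh, Ada and Gda had the opposite sign, as did the means of Hprt (−0.25), Ampd3 (−0.20) and Aprt (−0.12).

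All 13 macrophage and dendritic cell markers met the rule as lower (median −2.05), with Lyz2 at −2.91 ± 0.10, C1qc at −2.47 ± 0.08 and Cd14 at −2.30 ± 0.24. Their summed signal was 13850 to 15390 with HMPA, against 87240 to 91110 with adenine alone. Lyz2 alone held 8362 and 7145 of it with HMPA, against 58840 and 57630 with adenine alone. With the mean over probes 11 of the 13 met the rule. Other probes of Csf1r and Itgax, named after their values were seen, gave −0.14 and −0.09. Of 9 injured tubule markers 8 were lower and 1 was higher (median −2.85). The higher one was Havcr1 (1.07 ± 0.04), named after its value was seen. Spp1 was −3.55 ± 0.0036, Krt18 −2.43 ± 0.15 and Clu −2.09 ± 0.15. The sum was 21830 to 25290 with HMPA, against 162500 to 172800 with adenine alone. Spp1 alone held 8928 and 7635 of it with HMPA, against 104100 and 89520 with adenine alone. Of 10 fibroblast and pericyte markers 9 were lower (median −1.83), with Col1a1 at −3.23 ± 0.17, Col1a2 at −2.89 ± 0.27 and Col3a1 at −2.82 ± 0.14, and sums of 17770 to 22090 with HMPA, against 116800 to 126100 with adenine alone. Other probes of Col1a1 and Col3a1 gave ratios as near 0 as −0.25 and −0.71. With the mean over probes 8 of the 10 were lower. The part of these lists in the ratios of the purine enzymes was not tested.

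Of 7 erythroid markers measured, 5 met the rule as higher (median 2.61, and 0.85 to 3.56 over the alternatives), with Hbb-bt at 4.62 ± 0.24, Hba-a1 at 3.64 ± 0.59 and Hba-a2 at 3.48 ± 0.04. The other two, named after their values were seen, were Slc4a1 (2.61 ± 0.17) and Alas2 (2.47 ± 0.26). Globin probes may share transcripts. The sum was 79000 to 82820 with HMPA, against 4435 to 6351 with adenine alone, while Ahsp and Sptb were not above background. Ampd3, the deaminase form of red cells, was −0.20 beside this. Of 11 T and NK cell markers 1, Il7r (−1.40 ± 0.37), met the rule as lower (median −0.17). Cd8b1 was −0.91 ± 0.23 and Cd3d −0.60 ± 0.05, and Ncr1 was not above background. The sum was 1080 to 1132 with HMPA, against 1391 to 1473 with adenine alone. Of these 11, 3 were above 0 and 8 below. Cd8a, named after its value was seen, was 0.76 ± 0.28, opposite in sign to Cd8b1. In this list 1 marker was higher with an offset of 10 and on array 1 alone, and 2 with Feature Extraction's ratios. Of 11 endothelial markers none met the rule (median −0.15). Emcn was −0.55 ± 0.14, Plvap −0.42 ± 0.05 and Flt1 −0.04 ± 0.26, with sums of 13670 to 14500 with HMPA, against 16460 to 16880 with adenine alone. Of the endothelial markers 3 were above 0 and 8 below, and Kdr, named after its value was seen, was 0.51 ± 0.10.

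The remaining tubule lists lay above 0. Of 7 markers of the distal tubule and the loop of Henle 4 met the rule as higher (median 1.22), with Egf at 3.60 ± 0.01, Kcnj1 at 0.90 ± 0.34 and Umod at 0.11 ± 0.12. Of the 4, Pvalb (3.00 ± 0.13), Calb1 (1.45 ± 0.10) and Slc12a1 (1.22 ± 0.10) were named after their values were seen. The other Slc12a1 probe gave 0.10, and with the mean over probes 3 markers of this list were higher. The sum was 76710 to 86110 with HMPA, against 43670 to 48930 with adenine alone. Umod alone held 35000 and 35750 of it with HMPA, against 29930 and 36090 with adenine alone. Of 7 collecting duct markers 3 met the rule as higher (median 0.87), with Aqp3 at 2.59 ± 0.30, Slc26a4 at 2.42 ± 0.05 and Aqp2 at 1.09 ± 0.19. Their sum was 12150 to 12720 with HMPA, against 2810 to 3046 with adenine alone.

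**Figure D5:**
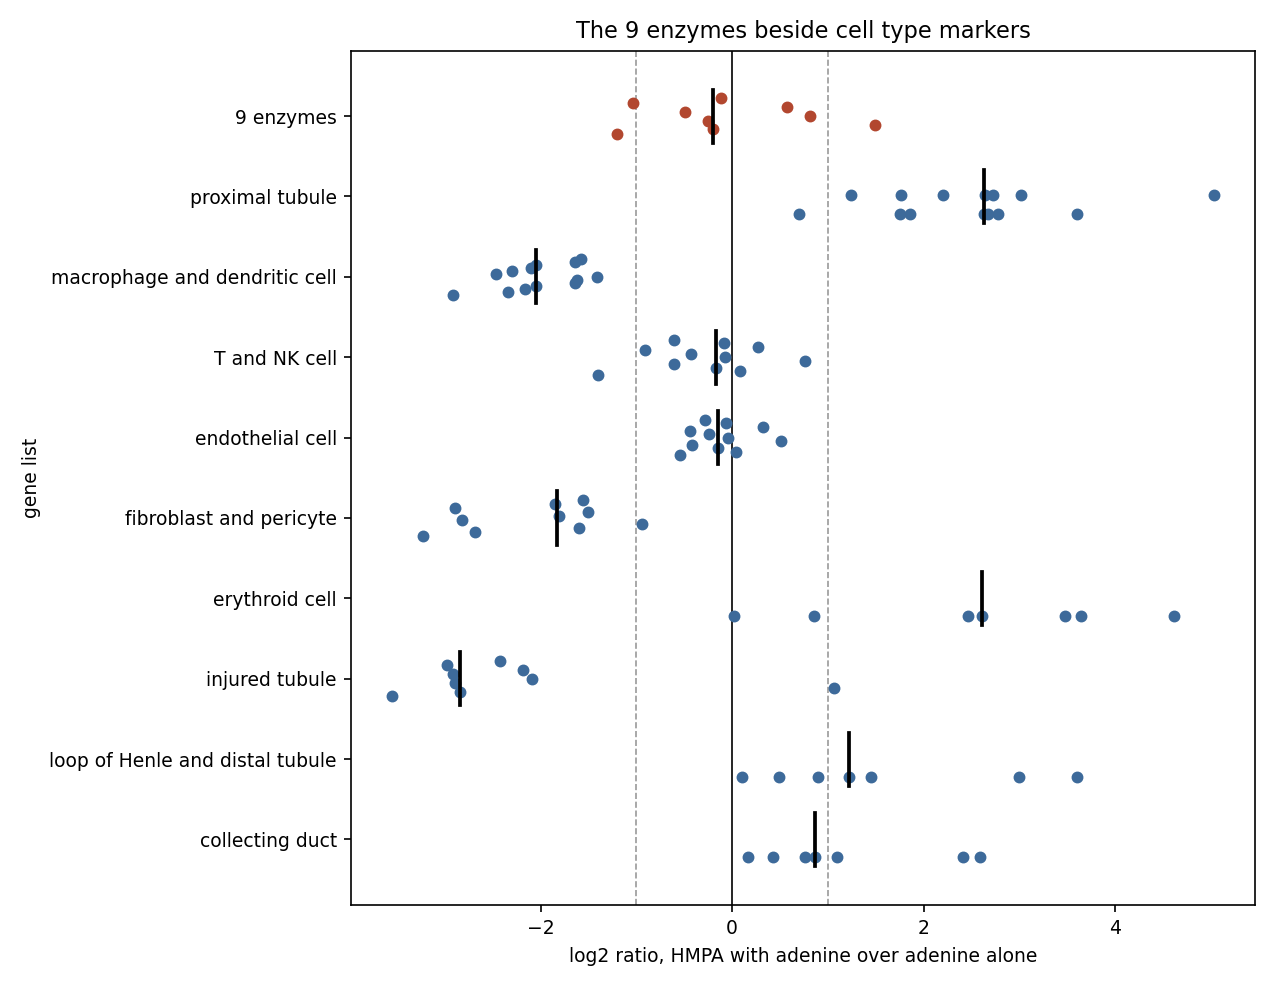
Log2 ratio of HMPA over adenine alone (x axis) for the 9 enzymes (red, top row) and the markers of 9 kidney, blood and immune cell types (blue, 1 point per gene, vertical spread only to separate points), with medians as black bars and 2-fold as dashed lines. The 9 enzymes span 0, while proximal tubule and erythroid markers lie above it and macrophage, fibroblast and nearly all injury markers below.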

How the data were processed

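Kidney RNA of 2 conditions was measured on 2 Agilent dual-colour arrays with swapped dyes, from 1 slide and 1 scan. Per the labels' protocols, QIAzol was used to isolate total RNA. Per the file headers the authors quantified spots with Feature Extraction 12.2.0.7 (the submitters' processing notes name 9.5) on a design of build mm9. The deposited signal and background columns hold intensity, without normalization. The deposited ratio column holds the log10 of red over green after the authors' background subtraction and dye normalization, and the value table matched this log10 ratio within 0.00499. The deposited p-value and the deposited error score come from an error model for 1 spot. The p-values were not used.

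In limma 3.58.1 (R 4.3.3), background was corrected by normexp with an offset of 50, followed by loess within arrays, and the sign was set to HMPA over adenine alone. Control spots and the 281 and 297 spots marked as unreliable got no weight, and no spot was saturated. Channel signals were scaled between arrays by the Aquantile method. Spots of a probe were averaged. Probes well above background on both arrays for 1 condition or both were used (25138 of 41174), and each gene took its brightest. Between 57.9% and 67.9% of the 43379 spots per channel were well above background, and the number of arrays limits the precision. Names came from a RefSeq table (GRCm38.p6), except for 1824 probes named as in the file. Python 3.11.15 made the tables.

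The arrays were treated as repeats of 1 sample per condition, which leaves no residual degree of freedom, and no test across genes was run. The procedure was run on a simulated dye swap with few changed spots and a constant dye factor. That simulation does not cover the larger share of changed genes in these data or a dye bias particular to a gene. All 9 enzymes are named, in each pathway list the genes that met the size rule (or up to 2 of the brightest), and in each marker list the 3 brightest. The members and lists were chosen with earlier results of these data known. The alternatives were a smaller offset, no background correction, median centring, Feature Extraction's ratios, no filter, a filter on all 4 channels, the mean over probes and each array alone. Where a gene's brightest probe was above background in all 4 channels, neither filter alternative could change its value. With a single kept probe the mean over probes could not either.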

Additional observations from a re-analysis of the deposited data

How the results depend on the processing

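The arrays were treated as 1 RNA sample per condition, since the labels do not say whether they hold separate RNA, so the spread between animals is not known, and dim probes such as those of Gda and Ampd3 are compressed by the offset of 50. Under the alternatives, 8 of the 9 enzymes kept their sign throughout, and Hprt was the exception (0.03 on array 1 alone). Within some alternatives, a single array of Aprt or of Pnp had the other sign. Calls changed for Xdh with the mean over all probes (−0.72, no longer lower), for Ada on array 1 alone (−0.86, no longer lower), for Nt5e on array 1 alone (1.06, then higher) and for Gda with the offset of 10 (−1.06) and Feature Extraction's ratios (−1.76), then lower. The causes were not tested, except that the mean for Xdh includes 2 probes with ratios nearer 0. The number of enzymes higher was 1 to 2 and lower 1 to 2 with each array left out, and 1 was lower with the mean over probes. Their median was −0.17 to −0.11 with each array left out, −0.37 by median centring and −0.26 for Feature Extraction. In the pathway lists 8 genes were higher with Feature Extraction's ratios and 8 to 10 with each array left out. There 5 were lower with the offset of 10, 6 by median centring and 7 for Feature Extraction. The median of these lists was −0.059 with median centring, 0.30 for Feature Extraction, 0.034 without the filter and 0.089 to 0.18 with each array left out. Over all genes, 2043 were higher and 2461 lower with Feature Extraction's ratios, and 1973 lower against 749 higher with median centring, where the share of higher genes among those that met the rule was 27.5% in place of 46.2% and the median of all genes moved by −0.18. Each array holds both conditions, so every ratio was already a pairing within an array. No paired test across animals was possible, because the arrays were treated as repeats of 1 sample per condition.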

Other observations

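Hprt gave an unplanned view of the error, since its probe was printed 10 times on each array. With loess the SD between its spots was 0.14 on array 1 and 0.12 on array 2, near the median SD of 0.10 and 0.09 over the 245 probes printed 10 times. With Feature Extraction's ratios the same spots had an SD of 0.03 on both arrays, while the error that the authors' software attached to each spot had a median of 0.20 and 0.21. The means of the arrays still stood apart with those ratios, at 0.06 and −0.59. Judged by its repeat spots alone, a single-array ratio of this gene would thus have looked precise on either array. The arrays differed with loess and with Feature Extraction's ratios, but were −0.42 and −0.36 with median centring.

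Scaling moved the agreement between arrays in opposite ways for the bright salvage genes. With loess Aprt was −0.17 on array 1 and −0.07 on array 2, and Hprt 0.03 and −0.54. With median centring Aprt was −0.58 and 0.15, and Hprt −0.42 and −0.36. The mean over arrays moved little in comparison, to −0.22 for Aprt and −0.39 for Hprt.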
